A study of Homo sapiens with 6 samples.

Results

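The sites described here are the positions at which Argonaute was crosslinked to RNA next to a seed match for miR-21-5p in HK2 cells. HK2 is an established cell line derived from the epithelium of the human proximal tubule, the first stretch of the kidney's nephron. They are the rows of the deposited crosslink table whose best predicted seed is that of hsa-miR-21-5p, with every match type and gene feature kept. There are 242 of them among 16230 crosslink sites, of which 10249 carry one of 42 listed seeds. The choice used the seed annotation and no read count of the sites. Argonaute-bound RNA had been mapped by PAR-CLIP, in which cells take up 4-thiouridine, ultraviolet light joins it to bound protein, and the joined position is read as a base change. The libraries analysed were 2 from cells given TGF-beta1 (20 ng/mL, 24 h) and 2 from control cells. All 4 came from wild-type HK2 cells that were serum starved for 24 h, given 100 μM 4-thiouridine for 20 h and irradiated at 365 nm, and all were pulled down with an anti-Argonaute antibody. IgG pull-downs (2 libraries) were not analysed here, and the values stand without a pull-down background.

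Argonaute holds a microRNA and offers its seed, a short stretch near the 5′ end, for pairing with messenger RNA, most often in the 3′ UTR, and paired messages are repressed. miR-21 is among the most abundant microRNAs of many cultured epithelial cells, and it is known from work on injured and fibrotic kidney. SMAD proteins, which carry the TGF-beta signal, are known to favour its processing. PDCD4, a repressor of translation, is among its best known targets.

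The mature microRNA is printed first because every site below is read against it. It lies at chr17:59841273-59841294 on the plus strand (RefSeq, GRCh38.p14), and capitals mark its seed, nucleotides 2 to 8.

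hsa-miR-21-5p: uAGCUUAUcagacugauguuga

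The target windows that follow are those of 11 of the 12 deepest sites and of the 4 changed ones, with examples of each kind of match. They are 26 bases long on hg38, written 5′ to 3′ on the transcript strand. Capitals mark the authors' seed match, and the crosslinked T is always base 11, with 10 bases before it. The first set holds perfect matches to nucleotides 2 to 8 that are followed by an A.

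TPRG1L, 3′ UTR, chr1:3628809-3628834, plus: actctgctcatATAAGCTacagacaa

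BCL7A, 3′ UTR, chr12:122059483-122059508, plus: tatgtaacgatATAAGCTatcggagg

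NIPAL1, 3′ UTR, chr4:48038316-48038341, plus: atatcagatatATAAGCTatgaacac

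GATAD2B, 3′ UTR, chr1:153806658-153806683, minus: cgttcatgtatATAAGCTatttcttg

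TOR1AIP2, 3′ UTR, chr1:179845019-179845044, minus: cagcagaatgtATAAGCTagcattta

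TGFBI, 3′ UTR, chr5:136063640-136063665, plus: atggcatcattATAAGCTatgagttg

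The next pair matches nucleotides 2 to 8 with a G in place of that A.

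RHOB, 3′ UTR, chr2:20449371-20449396, plus: ataaaagttctATAAGCTgtgtatac

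UGCG, coding sequence, chr9:111932918-111932943, plus: gggacccaactATAAGCTggagaact

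The third set matches nucleotides 2 to 7 and has a lower-case g between the crosslinked T and the match, opposite nucleotide 8.

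TXNIP, 3′ UTR, chr1:145992991-145993016, minus: ccatcttaaatgTAAGCTgaaactgg

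ZNF678, 3′ UTR, chr1:227655907-227655932, plus: tttcacaaaatgTAAGCTtcagagtg

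POLE3, 3′ UTR, chr9:113407786-113407811, minus: tctgtcagtctgTAAGCTttgataac

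PMEPA1, 3′ UTR, chr20:57648561-57648586, minus: gttaaacttatgTAAGCTttccgtgg

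In the fourth set the crosslinked T itself stands opposite nucleotide 8.

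GNPDA1, 3′ UTR, chr5:142000724-142000749, minus: tcattctgtttTAAGCTcatggatca

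FRMD6, coding sequence, chr14:51725823-51725848, plus: gaaacagttgtTAAGCTtcgtggcca

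SQSTM1, end of coding sequence and 3′ UTR, chr5:179836634-179836659, plus: catagttgtgtTAAGCTtgcgtagaa

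The last pair shows the rarer kinds, a match to nucleotides 3 to 8 and a match with a bulge.

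JAG1, 3′ UTR, chr20:10638712-10638737, minus: ttgttgcctATAAGCcaaaattaagg

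RTN4, 3′ UTR, chr2:54972193-54972218, minus: aaagtatcaATAAAGCTtatagactt

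Most of the 242 sites carried 6-base matches. The authors' match was to nucleotides 2 to 7 (TAAGCT) at 130 sites, to nucleotides 2 to 8 (ATAAGCT) at 83, to nucleotides 3 to 8 (ATAAGC) at 22 and a bulged 7-base match at 7. The 7-base match made up 34.3% of the miR-21-5p sites (95% Wilson interval 28.6 to 40.5%), against 54.4% of let-7 sites and 54.2% of miR-30-5p sites. The letters TAAGCT stood in 204 of the windows of 31 bases at miR-21-5p sites and in 235 of all 16230 windows (1.45%), and their reverse complement in 84 of all windows (0.518%). ATAAGCT, which contains TAAGCT, stood in 79 at miR-21-5p sites and 91 of all windows (0.561%), with its reverse complement in 19 (0.117%). The letters are what chose the sites, so these counts describe the choice. Another 51 sites list miR-21-5p as a further seed beside a better one and were not taken. Of the 242 sites, 128 list no second seed.

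The crosslinked T most often faced the first base past the seed. At 112 of the 235 sites without a bulge it faced nucleotide 9 (47.7%, Wilson interval 41.4 to 54.0%), at 33 sites nucleotide 8, and at the others it was spread from nucleotide -8, before the 5′ end, to 22. Across the other listed seeds 28.6% of sites faced nucleotide 9, with 66.5% at let-7 sites and 34.1% at miR-30-5p sites. No miR-21-5p site was crosslinked opposite nucleotides 3 to 6; the match has no T there, so PAR-CLIP could not report one. Sites are no independent replicates, and Wilson intervals cover counting error only. The authors call the 145 sites facing nucleotide 8 or 9 adjacent (59.9% of members, against 35.8% of sites with other seeds), and put 40 in a class near the match and 57 in a class farther off.

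**Figure D1:**
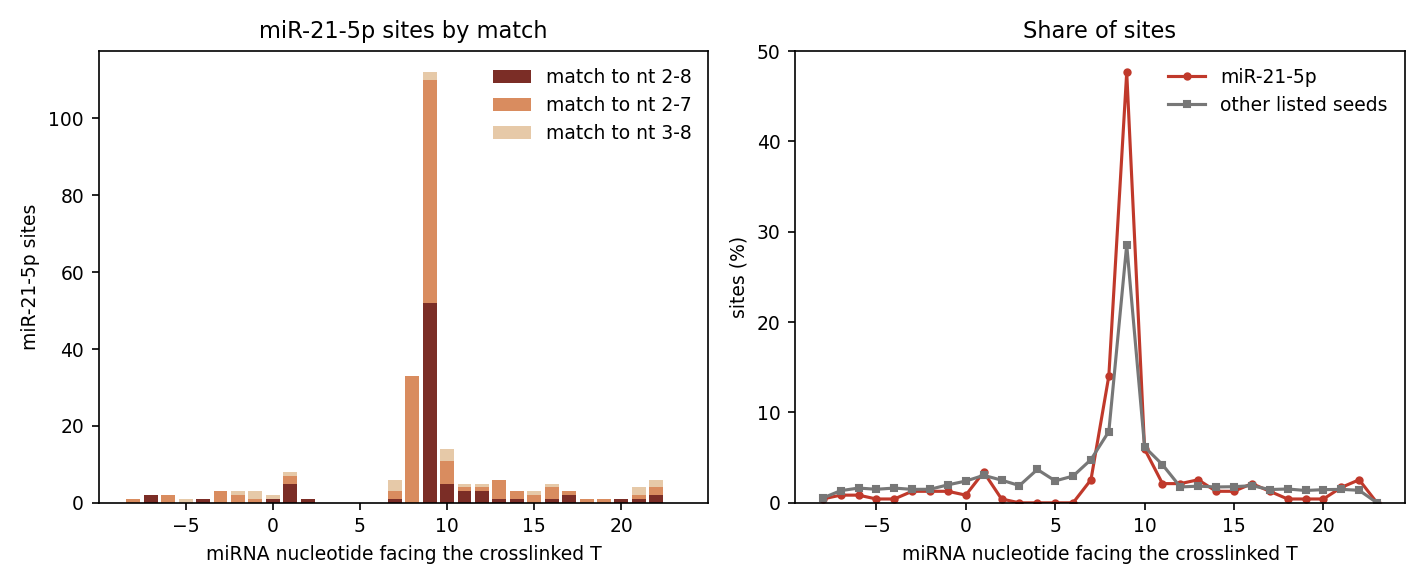
Left, number of miR-21-5p sites (vertical axis) by the microRNA nucleotide facing the crosslinked T (horizontal axis; 0 and below lie past the 5′ end), stacked by match type for the 235 sites without a bulge. Right, the same as a percent of sites for miR-21-5p and for the other listed seeds; both peak at nucleotide 9, with 47.7% and 28.6%.

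Matches one base short were mostly of one kind where the crosslink faced nucleotide 9. Of the 58 sites matched to nucleotides 2 to 7 with that geometry, 45 had a G opposite nucleotide 8, which is a U in miR-21-5p (77.6%, Wilson interval 65.3 to 86.4%). A T stood there at 8 sites and a C at 5, and a G with a U can form a wobble pair. At the 38 such matches crosslinked elsewhere, apart from those facing nucleotide 8, G stood there at 9, T at 17 and C at 12. G was also the commonest base at this place for other seeds with the same geometry, at 61.0% of 747 sites, whatever their own nucleotide 8. TXNIP, ZNF678, POLE3 and PMEPA1 in the third set above are sites of this kind. The base facing nucleotide 1, where Argonaute itself is known to prefer an A, was A at 40 of 77 sites matched to nucleotides 2 to 8 (51.9%) and at 30 of 124 matched to nucleotides 2 to 7 (24.2%). For other seeds these shares were 45.4% and 32.6%. Full pairing with nucleotides 13 to 16 of miR-21-5p, the usual place of supplementary pairing, was scored without gaps. It was found at 5 of the 112 sites facing nucleotide 9 (4.46%). Against the same miR-21-5p nucleotides, 17 of 2798 sites of other seeds paired in full (0.608%). That is a background for these letters, and pairing of other microRNAs at their own nucleotides 13 to 16 was not scored. These 5 sites had a median of 17 crosslinked reads, against 18.5 for all 112.

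The sites lay in 218 named genes and 3 had no gene name. The 3′ UTR held 147 of them (60.7%, Wilson interval 54.5 to 66.7%), coding sequence 50 (20.7%) and introns 27 (11.2%). Among sites with other seeds the 3′ UTR share was 44.9%, and among all sites 39.0%. Annotated non-coding RNA held 5 sites, and intergenic, antisense and 5′ UTR sequence 3 each. A further 2 lay across the end of the coding sequence and 2 in extended 3′ UTR.

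The libraries were 5293207 and 3415699 reads deep with TGF-beta1 and 1714445 and 1926255 reads deep in control. Crosslinked reads at all listed sites came to 74969 and 72206 with TGF-beta1 and to 36958 and 53835 in control. The 242 sites held 1745 and 1808 of these in the TGF-beta1 libraries and 928 and 1477 in the control libraries. A crosslinked read was present at 232 and 228 of the sites with TGF-beta1 and at 197 and 210 in control, and 160 sites had one in every library. Every listed site had crosslinked reads in at least 2 libraries. Of the 242 sites, 2 had 0 reads in both TGF-beta1 libraries and 7 had 0 reads in both control libraries. Over all 16230 listed sites these counts were 193 and 1874. The TGF-beta1 libraries were the deeper ones, and the part of depth in these counts was not tested. None of 12 proximal tubule markers, such as LRP2 and CUBN, and none of 15 markers of other cell types had any listed site. Of 7 epithelial markers, CLDN1, JUP and KRT18 had one. The table lists Argonaute sites and not expression, so this does not measure the markers' RNA.

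Reads per site, summed over the 4 libraries, ranged from 2 to 337 with a median of 12.5, against 8 for sites with other seeds and 7 for all sites. Among adjacent sites in 3′ UTRs alone the medians were closer, 18 for miR-21-5p and 16 for other seeds. The 12 deepest sites held 32.9% of the 5958 reads, and 44 sites had 5 reads or fewer. Adjacent sites had a median of 17 reads, near sites 9 and the rest 8. In 3′ UTRs the median was 16, in coding sequence 10.5 and in introns 5. Sites facing nucleotide 8 or 9 held 82.2% of the reads of the 235 sites without a bulge. Over all 242 sites the kind of match moved the median less: it was 14 for nucleotides 2 to 8, 13 for nucleotides 2 to 7 and 10 for nucleotides 3 to 8. Among adjacent sites in 3′ UTRs the gap was wider. There the median was 27 for nucleotides 2 to 8 (35 sites) and 16.5 for nucleotides 2 to 7 (68 sites).

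**Figure D2:**
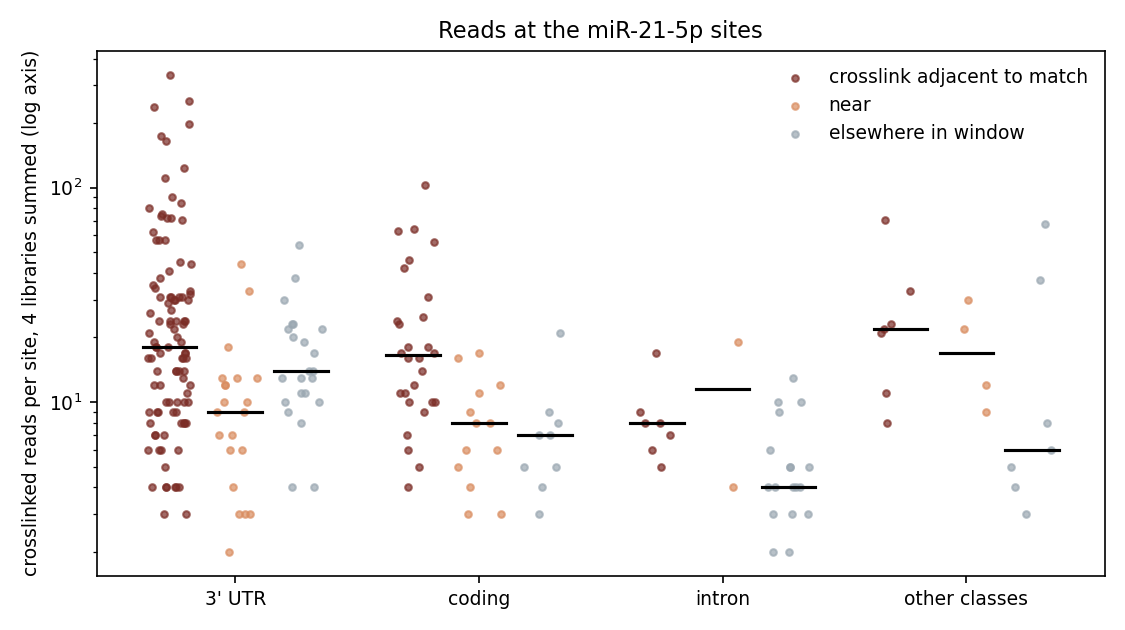
Crosslinked reads per miR-21-5p site, summed over 4 libraries (log axis), by gene feature and by the authors' class of crosslink position; points are sites, spread sideways at random, and black lines are medians. The highest points, up to 337 reads, are adjacent sites in 3′ UTRs.

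miR-21-5p was the most abundant seed in the authors' table and not the one with the most sites. Its level there was 376262 CPM (microRNA reads scaled to library size and rounded), 51.9% of the sum over the 42 listed seeds, against 97405 for let-7 and 50330 for miR-30-5p. It came 14th by number of sites and 11th by crosslinked reads. let-7 had 546 sites, miR-30-5p 450, and miR-27-3p had the most, 817, at a level of 8776. Per site miR-21-5p stood near the top, with the second highest median of reads and the fourth highest share of adjacent sites (59.9%). The table gives 1 level per seed, with no spread, so these ranks carry no error, and each site is counted for its best seed only.

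**Figure D3:**
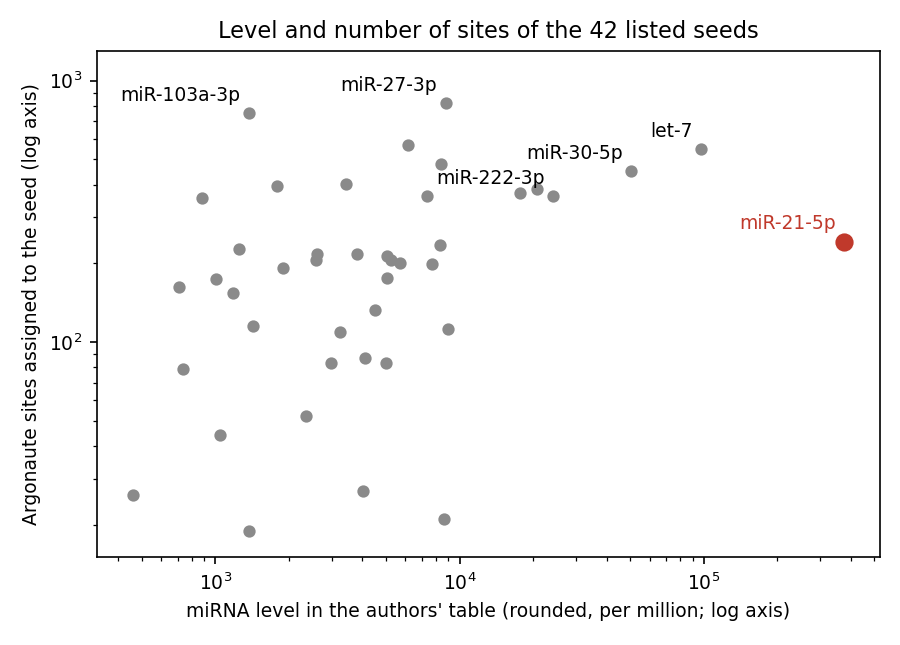
Level of each of the 42 listed seeds in the authors' table (horizontal, CPM, log axis) against the number of crosslink sites assigned to it (vertical, log axis); each point is a seed family. miR-21-5p (red) lies farthest to the right, at 376262 CPM, with 242 sites, below let-7 at 546.

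The comparison between cultures asked whether TGF-beta1 changed Argonaute binding at these sites. Of all crosslinked reads, the sites took 2.33% and 2.50% in the TGF-beta1 libraries, against 2.51% and 2.74% in the control libraries. Both TGF-beta1 values lay below both control values by a narrow margin. The means were 2.42% ± 0.125 with TGF-beta1 and 2.63% ± 0.164 in control (SD, n = 2 each). The exact two-sided permutation test gave p = 0.333, the smallest that 2 libraries against 2 allow, so no difference in the share was shown. Within the sites, adjacent ones took 78.2% and 79.1% of the reads with TGF-beta1 and 80.7% and 86.3% in control. Near ones took 8.83% and 8.90% with TGF-beta1 and 5.39% and 5.15% in control. For each of these the groups did not overlap, and the exact permutation p was again 0.333. The same held for 3′ UTR sites, with 73.0% and 74.3% with TGF-beta1 and 77.8% and 80.0% in control. It held too for coding sites, with 16.4% and 15.1% with TGF-beta1 and 11.7% and 13.3% in control. Among the other classes of feature and match some overlapped and some did not. Such shares for other seeds are not given here.

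Crosslinked reads as a share of covering reads, at the 160 sites found in every library, were 29.1% in both TGF-beta1 libraries and 30.7% and 36.1% in the control libraries. The same share over all 6145 such sites was 22.98% and 25.5% with TGF-beta1 and 27.6% and 31.1% in control. At the 117 adjacent miR-21-5p sites it was 40.7% and 39.0% with TGF-beta1 against 41.8% and 44.96% in control, and at the 43 others it was 12.1% and 12.1% with TGF-beta1 against 11.9% and 14.5% in control. The part of this library-wide shift in the results below was not tested.

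Single sites were tested with limma on log2(scaled RPM + 1), where scaled RPM is crosslinked RPM after TMM scaling, and p-values were adjusted over all 1059 sites with enough reads. Of the 242 sites, 37 passed that filter, with 31 to 337 reads, and 205, with 2 to 44 reads, were not tested. Of the 37, 4 passed through the TGF-beta1 libraries alone and 17 through the control libraries alone. A further 13 passed in both groups and 3 through 1 library of each. With TGF-beta1, 3 of the 37 were higher and 1 was lower, where 7.08% of all tested sites were called, that is had an adjusted p under 0.05 (3.68% higher, 3.4% lower). The median log2 difference of the 37 was -0.02, against 0.05 over all tested sites. The 3 higher sites passed the filter through the TGF-beta1 libraries alone and the lower one through the control libraries alone, so these counts describe the sites and support nothing about miR-21-5p sites as a set. Without TGF-beta1 replicate 1 or 2, 0 of the 37 passed limma (6 and 7 at an unadjusted p under 0.05), and without control replicate 1 or 2, 6 and 3 passed. The share of all tested sites called moved as well, to 0.283% and 0.472% without a TGF-beta1 library and to 9.63% and 11% without a control library. With DESeq2 2 passed, where 4.44% of all tested sites were called, and with edgeR 5, where 7.74% were. From these Argonaute libraries alone, more copies of a transcript and more Argonaute on each copy cannot be told apart. RNA levels were not used here.

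FRMD6, a FERM domain protein upstream of the Hippo pathway, held the deepest coding site, the only one of the 12 deepest sites outside a 3′ UTR. It had 12.9 and 13.7 scaled RPM in the TGF-beta1 libraries (42 and 48 reads), against 0.553 and 4.13 in control (1 and 12 reads). The groups were far apart, although the control libraries also differed from each other. The ratio of means was 5.69, with a log2 difference of 2.34 ± 0.511 (SE; limma adjusted p = 0.00446). The other 21 sites of FRMD6, summed, stood at 61.3 ± 4.301 scaled RPM with TGF-beta1 and 10.1 ± 2.13 in control (SD, n = 2 each), a ratio of 6.07. Without TGF-beta1 replicate 1 or 2 the site did not pass (limma adjusted p = 0.460 and 0.263), and over all 13 alternatives the adjusted p ran from 7.14e-09 to 0.460.

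TGFBI, a secreted matrix protein named for its induction by TGF-beta, has a perfect match followed by an A in its 3′ UTR. The site had 9.24 and 9.43 scaled RPM with TGF-beta1 (30 and 33 reads) and 1.66 and 2.07 in control (3 and 6 reads). The 2 libraries of each group lay close together, and the means differed 5.01-fold (log2 difference 1.86 ± 0.483, SE; limma adjusted p = 0.0172). The site held 49.3% of the gene's reads, and the gene's other sites differed 4.21-fold. Without TGF-beta1 replicate 1 or 2 the adjusted p was 0.411 and 0.263, and over 13 alternatives it ran from 0.00174 to 0.411.

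PMEPA1, an inhibitor of SMAD signalling that TGF-beta induces, has a 6-base match with the G opposite nucleotide 8. It had 6.47 and 6.29 scaled RPM with TGF-beta1 (21 and 22 reads), against 0 and 0.344 in control (0 and 1 read). Control held a single read, so the ratio of pooled reads after scaling, 30.04, has an exact 95% counting interval of 5.11 to 1214 (log2 difference 2.67 ± 0.598, SE; limma adjusted p = 0.00560). The other 26 sites of PMEPA1 differed 5.99-fold. Without TGF-beta1 replicate 1 or 2 the adjusted p was 0.489 and 0.263. Over the 12 alternatives that gave one it ran from 0.000489 to 0.489, and DESeq2 gave none.

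UGCG, the enzyme that makes glucosylceramide, has a 7-base match in its coding sequence and was the lower site. It had 3.39 and 1.43 scaled RPM with TGF-beta1 (11 and 5 reads), against 7.74 and 11.7 in control (14 and 34 reads). The groups did not overlap, and the site was 4.04-fold lower with TGF-beta1 (log2 difference -1.69 ± 0.487, SE; limma adjusted p = 0.0332). The gene's sites without a miR-21-5p seed were 3.28-fold lower. A second miR-21-5p site in the UGCG 3′ UTR had 0 reads in both TGF-beta1 libraries and 2 and 10 in control. The coding site did not pass without TGF-beta1 replicate 1 or 2 or control replicate 2 (limma adjusted p = 0.334, 0.350 and 0.116), and over 13 alternatives the adjusted p ran from 0.00896 to 0.350.

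**Figure D4:**
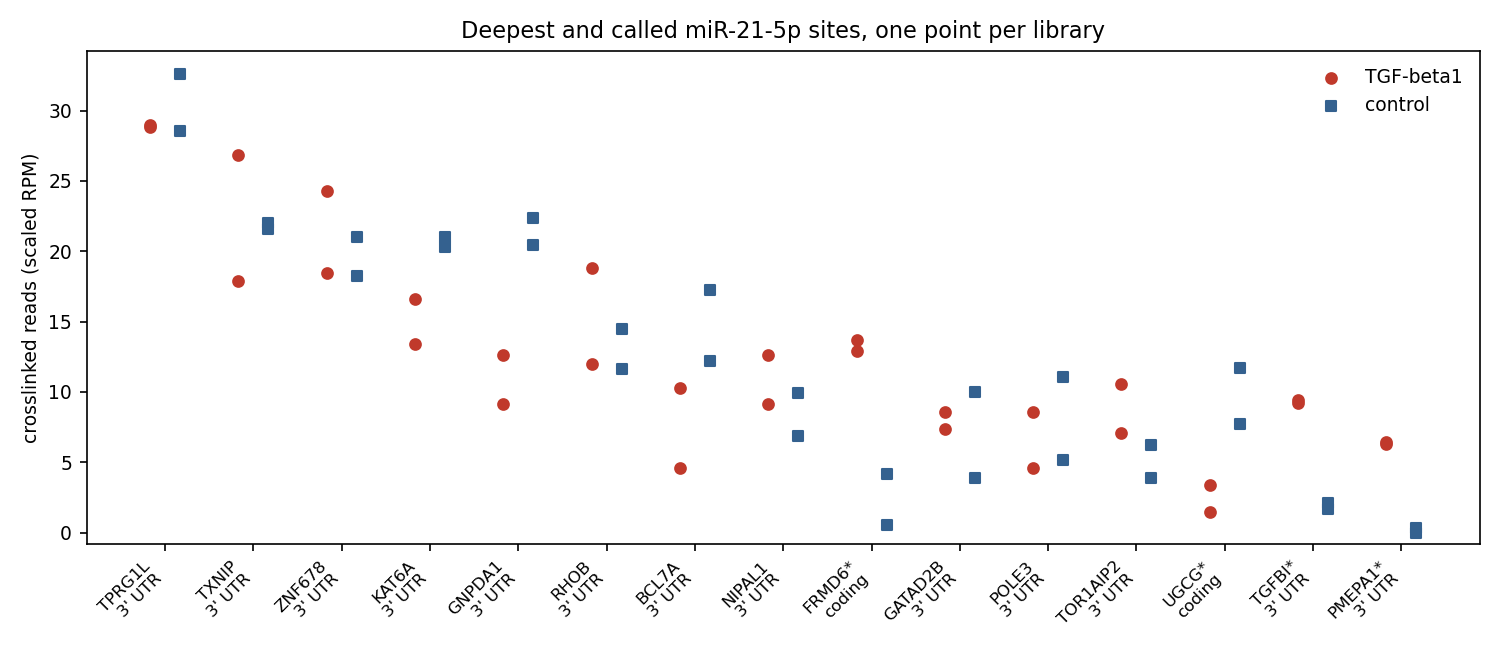
Scaled RPM of crosslinked reads at the 12 deepest miR-21-5p sites and the called sites not among them, with each library a point, TGF-beta1 (red circles) left of control (blue squares). Asterisks mark the 4 called sites: FRMD6, TGFBI and PMEPA1, higher with TGF-beta1, and UGCG, lower.

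Of the 12 deepest sites, the groups overlapped at 7 and did not at 5, where 48.3% of all 1059 tested sites had groups that did not overlap. TPRG1L, a protein of synaptic vesicles, had the deepest site of all, at 28.9 and 28.9 scaled RPM with TGF-beta1 and 32.6 and 28.6 in control. It held 93.9% of the reads of its gene (log2 difference -0.08 ± 0.245, SE). TXNIP, the thioredoxin-interacting protein, followed with 17.9 and 26.9 scaled RPM with TGF-beta1 and 21.6 and 22.03 in control. At ZNF678, a zinc finger protein, the reads were 60 and 85 with TGF-beta1 and 33 and 61 in control, which after scaling differed by 0.11 ± 0.279 (SE) on the log2 scale. In each of these 3 the groups overlapped, and none passed the test. KAT6A, a histone acetyltransferase, had 16.6 and 13.4 scaled RPM with TGF-beta1 and 21.01 and 20.3 in control, without overlap, yet its log2 difference of -0.44 ± 0.289 (SE) did not pass (limma adjusted p = 0.430).

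GNPDA1, which turns glucosamine 6-phosphate into fructose 6-phosphate, came closest to the threshold among the uncalled deep sites. It had 12.6 and 9.14 scaled RPM with TGF-beta1 and 20.5 and 22.4 in control, again without overlap (log2 difference -0.93 ± 0.306, SE; limma adjusted p = 0.0683). RHOB, a small GTPase of endosomes and the cytoskeleton, had 61 and 42 reads with TGF-beta1 and 21 and 42 in control, or means of 15.4 ± 4.80 scaled RPM with TGF-beta1 and 13.04 ± 2.01 in control (SD, n = 2 each). BCL7A, a subunit of the SWI/SNF remodelling complex, had 4.62 and 10.3 with TGF-beta1 and 12.2 and 17.2 in control (limma adjusted p = 0.140). In RHOB the groups overlapped, and in BCL7A they did not. NIPAL1, of a family of magnesium transporters, had 12.6 and 9.14 scaled RPM with TGF-beta1 and 9.95 and 6.89 in control. GATAD2B, a subunit of the NuRD complex, had 7.39 and 8.57 with TGF-beta1 and 3.87 and 9.98 in control. Both overlapped between groups. POLE3, a histone-fold subunit of DNA polymerase epsilon, overlapped too, with 4.62 and 8.57 scaled RPM with TGF-beta1 against 11.1 and 5.16 in control. TOR1AIP2, which activates torsin at the endoplasmic reticulum, had 7.08 and 10.6 with TGF-beta1 and 3.87 and 6.20 in control, without overlap (limma adjusted p = 0.380).

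Outside 3′ UTRs and coding sequence, the deepest sites of the remaining feature classes were led by those in SQSTM1, with 71 reads, and RNU5B-1, with 68. At the end of the coding sequence of SQSTM1, the autophagy receptor p62, the site had 6.78 and 5.14 scaled RPM with TGF-beta1 and 6.08 and 6.89 in control. RNU5B-1, a U5 small nuclear RNA with near-identical copies among which reads may be split, had 6.47 and 7.43 with TGF-beta1 and 6.08 and 3.44 in control. Neither passed the test. In the 5′ UTR of CLDN12, a claudin, the site had 3 and 13 reads with TGF-beta1 and 3 and 4 in control. PANX1, a channel protein, had 7 and 10 reads with TGF-beta1 and 4 and 1 in control at a site in its extended 3′ UTR. The deepest intronic site, in the splicing regulator TRA2A, had 5 and 9 reads with TGF-beta1 and 2 and 3 in control, and the deepest intergenic one, on chromosome 6, had 14 and 7 with TGF-beta1 against 6 and 6 in control. A site antisense to CNTRL had 0 and 4 reads with TGF-beta1 and 3 and 1 in control. These last 5 sites had too few reads for the test.

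At the level of genes, crosslinked reads were summed over all sites of a gene, with or without a miR-21-5p seed. Genes with a miR-21-5p site had a median of 4 sites and 86 reads, against 2 sites and 17 reads for all genes, and the miR-21-5p sites held a median of 25.7% of their reads. In 33 genes they held all of them. Of the 218 genes, 144 were tested, and with TGF-beta1 7 were higher and 5 lower, where 3.08% of all 1266 tested genes were called (1.58% higher, 1.5% lower). The median log2 difference was 0.04 for the 144 and 0.02 for all tested genes. These genes were deeper than all genes, as given above, and the part of depth in the share called was not tested. Without control replicate 1 or 2, 0 genes with a miR-21-5p site passed limma (27 and 30 at an unadjusted p under 0.05), and without TGF-beta1 replicate 1 or 2, 6 and 8 passed. Of all tested genes 0% were called without control replicate 1 or 2, and 0.869% and 1.34% without a TGF-beta1 library. With DESeq2 12 passed, where 3% of all tested genes were called, and with edgeR 14, where 3.79% were. Of the 144 genes, 7 passed the filter on low values through the TGF-beta1 libraries alone and 19 through the control libraries alone, and of the 12 called JAG1 and ANKRD33B did so, each through the group in which it was higher.

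The genes that were higher were FRMD6, PMEPA1, TGFBI, the matrix protein fibronectin (FN1), the Notch ligand JAG1, the stearoyl-CoA desaturase SCD and the adhesion molecule AMIGO2. Those that were lower were UGCG, the arrestin-like protein ARRDC3, the ankyrin repeat protein ANKRD33B, the AMPK-related kinase NUAK2 and GNPDA1. Over these 12 the miR-21-5p sites held a median of 5.25% of the gene's reads, from 0.645% in FN1 to 55.4% in GNPDA1. GNPDA1 had 21.5 and 16.2 scaled RPM in all with TGF-beta1 and 41.5 and 40.5 in control (limma adjusted p = 0.0430), and its single other site was 2.00-fold lower with TGF-beta1. Leaving out any 1 of the 4 libraries ended the calls of GNPDA1 (limma adjusted p = 0.0901 to 0.321), AMIGO2 (0.0620 to 0.289) and TGFBI (0.0901 to 0.289). ANKRD33B, which entered the test through the control libraries alone, had 17 and 9 reads with TGF-beta1 and 41 and 40 in control (limma adjusted p = 0.0154). Its miR-21-5p site had 2 and 1 reads with TGF-beta1 and 14 and 4 in control, and its other sites were 3.96-fold lower. Without TGF-beta1 replicate 2, control replicate 1 or control replicate 2 its adjusted p was 0.0955, 0.310 and 0.289.

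In most of the other called genes the miR-21-5p sites had few reads. JAG1, which entered the test through the TGF-beta1 libraries alone, had 31.7 and 31.04 scaled RPM with TGF-beta1, against 5.53 and 0.750 in control (limma adjusted p = 0.0105; 0.181 without control replicate 1 and 0.268 without control replicate 2). Its miR-21-5p site, a match to nucleotides 3 to 8, had 3 and 3 reads with TGF-beta1 and 4 and 0 in control, too few to test. In FN1 the miR-21-5p site, in coding sequence, had 2 and 13 reads with TGF-beta1 and 1 and 0 in control, of 2481 reads in the gene. SCD had 5 and 2 reads with TGF-beta1 and 1 and 2 in control at its site, and NUAK2 had 2 and 6 with TGF-beta1 against 4 and 8 in control. ARRDC3 had 3 and 1 reads with TGF-beta1 and 1 and 1 in control. AMIGO2 had 2 such sites in coding sequence, with 5 and 6 reads in TGF-beta1 libraries against 0 and 1 in control at one, and 3 and 5 with TGF-beta1 against 0 and 1 in control at the other. In these 6 genes the miR-21-5p sites held 4.29% of the crosslinked reads or less.

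**Figure D5:**
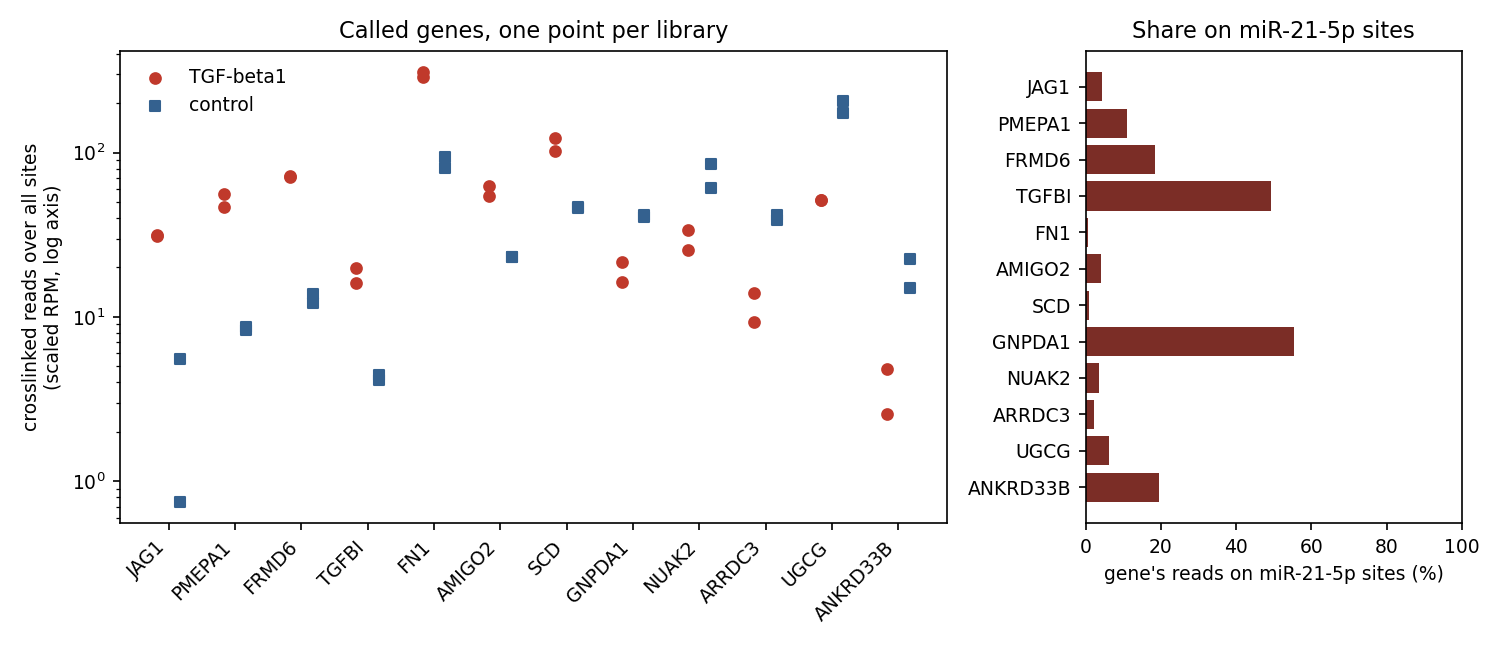
Left, scaled RPM of crosslinked reads over all sites (log axis) for the 12 called genes with a miR-21-5p site, with each library a point, TGF-beta1 (red circles) left of control (blue squares). Right, the percent of each gene's crosslinked reads, 4 libraries summed, on its miR-21-5p sites, from 0.645% in FN1 to 55.4% in GNPDA1.

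In 4 genes 3 or more sites matched the seed. RTN4, which shapes the endoplasmic reticulum, and DCBLD2, a transmembrane receptor-like protein, had 4 each, and the RNA-binding protein NUFIP2 and the transcription factor ZNF367 had 3 each. The deepest site of RTN4 had 6.47 and 6.86 scaled RPM with TGF-beta1 and 6.08 and 6.20 in control, and its other 3 had 24 reads or fewer. In DCBLD2 the 4 sites, with 14 reads or fewer each, held 0.726% of 4268 reads spread over 428 sites. The deepest site of NUFIP2 had 3.39 and 4.57 scaled RPM with TGF-beta1 and 10.5 and 8.95 in control, without overlap (log2 difference -1.11 ± 0.423, SE; limma adjusted p = 0.126). In the same gene all sites together had 69.7 and 72.0 scaled RPM with TGF-beta1 and 89.6 and 76.1 in control. Those sums use the gene-level TMM factors. The NUFIP2 sites without a miR-21-5p seed were scaled as single sites. They stood at 69.0 ± 3.45 scaled RPM with TGF-beta1 and 69.0 ± 13.4 in control (SD, n = 2 each). The deepest site of ZNF367 likewise lay lower without overlap, at 0.924 and 2.00 with TGF-beta1 and 3.87 and 4.82 in control (31 reads; limma adjusted p = 0.268). Its next site, with 30 reads and too few to test, had 2.46 and 2.86 with TGF-beta1 and 2.21 and 2.75 in control, and there the groups overlapped. None of these 4 genes passed the gene test.

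A list of 67 genes reported as miR-21 targets in earlier work, written from memory and not complete, had 41 genes with any listed site and 11 with a miR-21-5p site. The 11 were CDK2AP1, E2F2, EIF4A2, GATAD2B, JAG1, PELI1, RHOB, TGFBI, TOPORS, WWP1 and ZNF367. RHOB was the deepest, with 166 reads, then GATAD2B with 90 and TGFBI with 72. PELI1, an E3 ligase of innate signalling, had 6 and 4 reads with TGF-beta1 and 2 and 4 in control, and the E3 ligase TOPORS had 5 and 5 with TGF-beta1 against 2 and 2 in control. WWP1, another E3 ligase, had 3 and 3 reads with TGF-beta1 and 2 and 2 in control. The intronic site of the translation factor EIF4A2 had 3 and 7 reads with TGF-beta1 and 3 and 0 in control. CDK2AP1, a regulator of CDK2, had 0 and 0 reads with TGF-beta1 against 2 and 1 in control, and the transcription factor E2F2 had 1 and 1 with TGF-beta1 against 0 and 2 in control.

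PDCD4 had 5 listed sites with 78 reads, and none of their 31-base windows held TAAGCT or listed miR-21-5p as a further seed. Of the 30 listed targets with a site but no miR-21-5p site, FRS2 alone had such a window. This says only that these letters are not in these windows. At gene level 18 of the 67 were tested and by limma 5 were higher with TGF-beta1 and 0 lower (6 and 1 at an unadjusted p under 0.05): JAG1 and TGFBI, and BMPR2, SMAD7 and TPM1, which have no miR-21-5p site. Of all tested genes 1.58% were higher. JAG1 had passed the filter through the TGF-beta1 libraries alone. In each fit without 1 library most or all of these limma calls were lost. So were most or all of the calls over all tested genes, as given above. The median log2 difference of the 18 genes was 0.16, against 0.02 over all genes.

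Lists of pathways that miR-21 is known to touch were described the same way. Of 24 genes that restrain RAS and MAPK signalling, 13 had a site and 0 a miR-21-5p site, and of 4 tested 0 were called by limma, edgeR or DESeq2, and 0 had an unadjusted p under 0.05. Of 24 genes of PI3K and AKT signalling, 13 had a site and 1, the insulin receptor substrate IRS1, a miR-21-5p site, and of 3 tested 0 were called by any of these tools or at an unadjusted p under 0.05. Of 29 genes of TGF-beta and SMAD signalling, 20 had a site and 2, PMEPA1 and TGFBI, a miR-21-5p site. In that list 13 genes were tested and by limma 5 were higher (BMPR2, INHBA, PMEPA1, SMAD7 and TGFBI), where 1.58% of all tested genes were. By edgeR and DESeq2 6 each were higher, where 1.97% and 1.66% of all tested genes were. Of 21 matrix and matrix turnover genes, 13 had a site and 1, FN1, a miR-21-5p site, and of 8 tested 3 were higher by limma and by edgeR, FN1 and COL4A1 among them, and 2 by DESeq2. In both lists some or all of the limma calls were lost in each fit without 1 library. Most or all of the calls over all tested genes were lost in these fits too. CLDN1, the tight junction claudin, was the only epithelial marker with a miR-21-5p site. Its gene sum was 4.25 and 3.13 scaled RPM with TGF-beta1 and 19.4 and 9.75 in control, which did not pass (limma adjusted p = 0.0559), while edgeR and DESeq2 called it lower.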

How the data were processed

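Per the labels' protocols, a gel slice of 100 to 150 kDa was taken and cDNA was selected at 80 to 150 nt. The submitters' processing notes name bcl2fastq 2.20.0.422, STAR 2.7.1a, bedtools and hg38; GENCODE release 27 is named in the file headers. How crosslinks were called and how the best seed was picked is not given in the sources used here. The deposited table gives crosslinked and covering reads per site in RPM, scaled by the authors to library totals. It gives the level per seed as a score, a CPM rounded by the authors, and the offset of each match as a score in nt. RPM values came out as whole reads throughout (100%, tolerance 0.1 reads), which gave back reads and depth. Another 4 columns of per-sample values have names that begin with RNAseq. They name no sample of this series and were not used.

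Crosslinked reads were tested with limma 3.58.1 (R 4.3.3) with a variance trend on log2(TMM-scaled RPM + 1), TGF-beta1 minus control, two-sided, with Benjamini-Hochberg adjusted p under 0.05. Rows were kept by edgeR's filterByExpr (edgeR 4.0.16, minimum count 10), and TMM factors ran from 0.613 to 1.51 over sites and 0.666 to 1.38 over genes. Ratios are of group means of scaled RPM. Sums over all sites of a gene use the gene factors, and sums over its other sites use the site factors. Log2 differences understate the change of low sites. The design assumed such values, and edgeR and DESeq2 1.42.0 on recovered reads were alternatives, with others given at the end. The fit was also run on simulated counts with the same set dispersion for every row. The outcome is not given here, and no result rests on it.

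Named sites were those called, the 12 deepest, those in listed targets, in genes with 3 or more sites or in called genes, and the deepest of each feature class. BMPR2, SMAD7, TPM1, INHBA, COL4A1, PDCD4, FRS2, CLDN1 and IRS1 are named for their lists. Some members of the lists are not reported here by name. The members and lists were chosen with earlier results of these data known. Nothing in the labels ties the replicates to separate cultures; the p-values then cover only the spread among these 4 libraries, possibly technical. Same-numbered libraries deviated from their group means with a correlation of 0.117 (sites) and 0.131 (genes); with 2 pairs, replicate numbers were not used as pairing. No molecular identifiers are named, so intervals cover counting error only.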

Additional observations from a re-analysis of the deposited data

How the results depend on the processing

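The design named a count test as an alternative, and when the others below were chosen is not stated. The share of crosslinked reads at miR-21-5p sites stayed lower with TGF-beta1 under every alternative run, with a difference of -0.428 to -0.0952 percentage points, and of -0.328 to -0.0952 without 1 library. Of the sites, 4 were called in the reported test, 1 without TMM scaling, 0 without the filter (24 at an unadjusted p under 0.05), 2 without the variance trend, 2 with DESeq2 and 0 with covering reads (19 at an unadjusted p under 0.05). The share of all tested sites called moved with them, from 7.08% in the reported test to 2.64%, 0%, 2.36%, 4.44% and 0%, in the same order. Leaving out 1 library gave 0 to 6, with 0.283 to 10.95% of all tested sites called. Of the genes, 12 were called, 3 without the filter (0.0917% of all), 2 without the trend (0.237% of all), 19 with 3′ UTR sites only (where 8.88% of all 788 tested genes were called), and 0 to 8 without 1 library. The replicate block gave 6 sites and 12 genes, where 11.05% of all tested sites and 2.76% of all tested genes were called. The median log2 difference of the tested sites was -0.02, and it was -0.63 without TMM scaling, which moved the median of all tested sites to -0.51. It was 0.13 without the filter, with 0.13 over all sites, and 0.075 with covering reads, with 0.30 over all sites. Cutting the windows to 10 nt either side left ATAAGCT in 71 of the 242. Causes of these shifts were not tested, except that the filter and the 3′ UTR setting change which rows enter.

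No called site or gene changed direction under any alternative run. Named results that did not pass did, at 14 sites and genes. The 39 named sites and genes followed here include the 4 called sites and 12 called genes, so the 14 come from fewer than 39. Without TMM scaling the log2 difference turned to -0.63 at the TXNIP site, -0.53 at ZNF678, -0.43 at RHOB, -0.26 at NIPAL1, -0.30 at GATAD2B, -0.47 at RTN4 and -0.051 at RNU5B-1, and to -0.27 in the gene DCBLD2, -0.076 in EIF4A2 and -0.40 in RTN4. With covering reads it turned to -0.075 at TXNIP, -0.28 at ZNF678 and -0.15 at RTN4, and to 0.15 in the gene GATAD2B. Without the filter it turned to 0.032 at TPRG1L and to 0.0097 in the gene GATAD2B. Without 1 library it ran from -0.17 to 0.016 at TPRG1L, -0.26 to 0.29 at TXNIP, -0.062 to 0.30 at ZNF678, -0.10 to 0.52 at RHOB, -0.29 to 0.86 at GATAD2B, -0.70 to 0.25 at POLE3 and -0.29 to 0.073 at SQSTM1, and from -0.049 to 0.93 in the gene EIF4A2 and -0.37 to 0.14 in GATAD2B. The filter on low values limits the test: 205 of the 242 sites did not pass it.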
